A study of Mus musculus with 2 samples.

Results

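The miR-290 cluster (miR-290 to miR-295) is a row of microRNA (miRNA) hairpins on mouse chromosome 7 that is known from embryonic stem cells, and its remaining level was measured here in the forebrain of embryos at embryonic day 11.5 (E11.5). The rows described are Mir290a, Mir291a, Mir292, Mir291b, Mir293, Mir294 and Mir295, chosen by their Ensembl identifiers, and they are 7 of 1973 miRNA gene rows. Mir292 is the older symbol of Mir292a. Short RNA of B6NCrl forebrain tissue was sequenced in 2 libraries of 1 group, numbered as biological replicates. Replicate 1 pooled tissue of 109 embryos and replicate 2 that of 88 embryos, each with males and females. The labels give both pools the same donor entry, so the spread between the libraries may be partly technical. No mutation, treatment, control group or other age is part of the series.

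These miRNAs are made from a common primary transcript that pluripotent cells of the early embryo produce at high levels and lose as they differentiate. Several of the mature miRNAs from the 3' arms share a seed, the stretch of bases 2 to 8 that pairs with messenger RNAs. In embryonic stem cells they are known to repress inhibitors of the step from G1 to S phase, which keeps the cells dividing. Germ cells and trophoblast are also known to express the cluster. The E11.5 forebrain consists largely of dividing neural progenitors.

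Sequences show which of the listed arms belong to 1 seed family and which do not. RefSeq (GRCm38.p6) lists 13 mature arms for the 7 members. Capitals mark the seed, and all sequences run 5′ to 3′. The seed AAGUGCU is carried by 3 members and, in the same table, by the 3' arms of Mir302b and Mir302d, whose cluster on chromosome 3 is also known from pluripotent cells.
Mir291a, miR-291a-3p: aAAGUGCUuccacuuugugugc
Mir294, miR-294-3p: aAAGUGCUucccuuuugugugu
Mir295, miR-295-3p: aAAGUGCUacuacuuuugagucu
Mir302b, miR-302b-3p: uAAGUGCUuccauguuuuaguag
Mir302d, miR-302d-3p: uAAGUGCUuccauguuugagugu
Only these 5 of the 1738 mature arms in the table, 0.288%, have that seed. The table lists no 3' arm for Mir292 or Mir302a, so whether these carry it is not shown here. The 3' arms of Mir290a, Mir291b and Mir293 have other seeds.
Mir290a, miR-290a-3p: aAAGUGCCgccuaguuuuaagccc
Mir291b, miR-291b-3p: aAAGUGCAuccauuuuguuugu
Mir293, miR-293-3p: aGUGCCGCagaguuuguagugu
The arms of Mir290a, Mir291a, Mir291b, Mir294 and Mir295 shown here begin with AAAGUGC, which is the seed of miR-17-5p and there stands at bases 2 to 8. The 5' arms fall into other groups. CUCAAAC was shared by 3 members and occurred in no other arm of the table.
Mir290a, miR-290a-5p: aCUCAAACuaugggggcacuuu
Mir292, miR-292a-5p: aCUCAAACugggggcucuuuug
Mir293, miR-293-5p: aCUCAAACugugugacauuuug
AUCAAAG was shared by Mir291a and Mir291b alone.
Mir291a, miR-291a-5p: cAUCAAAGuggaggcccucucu
Mir291b, miR-291b-5p: gAUCAAAGuggaggcccucucc
The counts were made per hairpin and not per arm, so a level cannot be assigned to the 5' or the 3' miRNA.

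The last pair of 5' arms bears on the counts. They share an unbroken stretch of 20 bases, and the gene counts leave out multimapping reads, so Mir291a and Mir291b can read too low by an unknown amount. The other 11 arms share at most 12 bases in a row with any other gene of the table, the longest being that of miR-291a-3p with Mir1958. Copies elsewhere in the genome were not searched.

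The 7 hairpins lie on the plus strand of chromosome 7 between 3218626 and 3220841 (mm10, GENCODE M21), a span of 2216 bases. They follow each other as Mir290a, Mir291a, Mir292, Mir291b, Mir293, Mir294 and Mir295, are 69 to 84 bases long and are separated by 48 to 782 bases. Mir294 (ENSMUSG00000077903.1) stands from 3220641 to 3220724, Mir293 (ENSMUSG00000078035.1) from 3220343 to 3220422 and Mir292 (ENSMUSG00000078041.1) from 3219189 to 3219270. RefSeq places the long noncoding RNA D7Ertd143e from 3218784 to 3221015, which spans 6 members, all but Mir290a. On the minus strand, the last exon of the transcript Nlrp12-201, from an innate immune receptor gene, covers the same 6 members within its 3' UTR. Mir290b and Mir292b, annotated on the minus strand over Mir290a and Mir292, have no row in the count tables.

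Counts on the strand of the gene came to 1281201 in replicate 1 and 1297647 in replicate 2, and levels are CPM, counts scaled to totals of 1000000. The miRNAs of this class are 22 to 24 bases long and 1 read covers a molecule, so counts were not divided by length. A single count is 0.781 CPM in replicate 1 and 0.771 CPM in replicate 2. The limit used for a count of 0 is 3 counts, about its 1-sided 95% upper bound by counting error. That is 2.34 and 2.31 CPM. Reads that map to several places were 41.7% and 39.1% of the mapped reads. Of the neural miRNA genes with a row, 9 of 10 had 2 CPM or more in both libraries, with 18428 and 15730 CPM for Mir92b, known from neural progenitors. Of all gene rows, 21.5% reached 2 CPM in both. The neural gene below that limit, Mir124a-1, has near copies and had 3 and 1 counts. The neural list summed to 40021 and 34448 CPM, mostly from Mir92b and Mir149, and its median gene had a mean of 334 CPM. Intervals below are 95% intervals and cover counting error only. Reads copied by PCR are not independent molecules, so the intervals can be too narrow even for that.

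A small remainder of the cluster was measured in the E11.5 forebrain, and Mir294, Mir293 and Mir292 made up most of it. All 7 members together had 200 counts in replicate 1 and 198 in replicate 2. That is 156 and 153 CPM, or 154 ± 2.49 CPM (SD, n = 2, as for every value with ±). The share of all counts was 0.0156% in replicate 1, with a Wilson interval from 0.0136 to 0.0179%. Replicate 2 had 0.0153% (0.0133 to 0.0175%). The intervals overlap almost entirely, so the summed level did not differ detectably between the pools. Single genes with more counts than the whole cluster numbered 207 and 205. In bulk tissue, few cells with much of an miRNA and many cells with little of it cannot be told apart.

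Mir294, which carries the shared 3' seed, had 81 counts in each library, or 63.2 and 62.4 CPM. Its mean of 62.8 ± 0.567 CPM was the highest of the cluster and ranked 249 of 1973 rows. The exact Poisson interval of its level ran from 50.2 to 78.6 CPM in replicate 1 and from 49.6 to 77.6 CPM in replicate 2. Counting error is thus far wider than that SD. Mir293, whose 3' arm has a seed of its own, had 58 and 77 counts, or 45.3 and 59.3 CPM, with a mean of 52.3 ± 9.95 CPM and rank 255. Counting error did not tell the levels of these neighbouring hairpins apart in either library. Mir292 had 45 and 26 counts, or 35.1 and 20.04 CPM, with a mean of 27.6 ± 10.7 CPM and rank 285. Mir292, Mir293 and Mir294 took 92.0% of the cluster's counts in replicate 1 and 92.9% in replicate 2.

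Mir291a, the second carrier of the shared 3' seed, had 8 counts in each library, or 6.24 and 6.17 CPM. The exact Poisson interval of its level ran from 2.70 to 12.3 CPM in replicate 1. Mir291b had 6 and 2 counts, or 4.68 and 1.54 CPM. Mir295, the third carrier, had 1 and 3 counts, or 0.781 and 2.31 CPM, although it lies only 48 bases beyond Mir294. Mir290a, the first hairpin of the cluster, had 1 count in each library, which its interval places between 0.0198 and 4.35 CPM in replicate 1. Mir290a and Mir295 are therefore at or near the limit of these libraries, where 28.4% and 29.3% of the genes with any count have 1 to 3 counts.

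**Figure D1:**
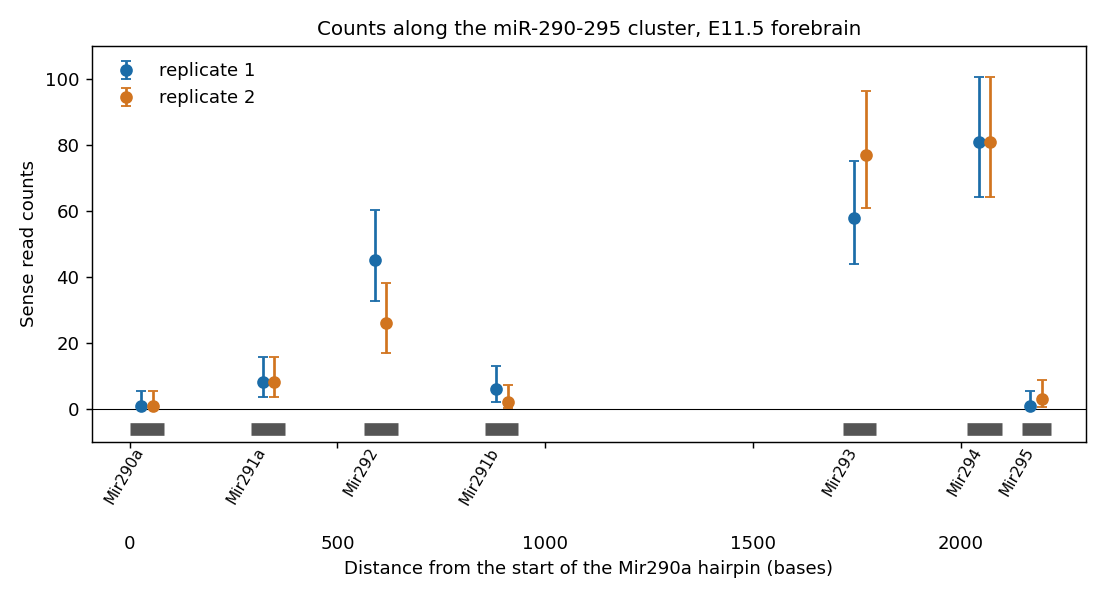
Sense read counts of the 7 members, placed by distance in bases from the start of the Mir290a hairpin, with grey bars for the hairpins, 1 point per library and exact 95% Poisson intervals of counting error. Mir293 and Mir294 stand at 58 to 81 counts and Mir292 at 26 to 45, while the other 4 members stay at 8 counts or fewer in both libraries.

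Of the 7 members, 4 had 2 CPM or more in both libraries, namely Mir291a, Mir292, Mir293 and Mir294. Of all 1973 gene rows 21.5% did so, and most other rows, 1288, had no count at all. All 7 members had at least 1 count in each library. The median member stood at 6.24 CPM in replicate 1 and 6.17 CPM in replicate 2, against a median of 0.00 CPM over all rows in both libraries. Among the 424 genes at 2 CPM or more, the median of the mean level was 143.2 CPM, higher than that of any member.

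**Figure D2:**
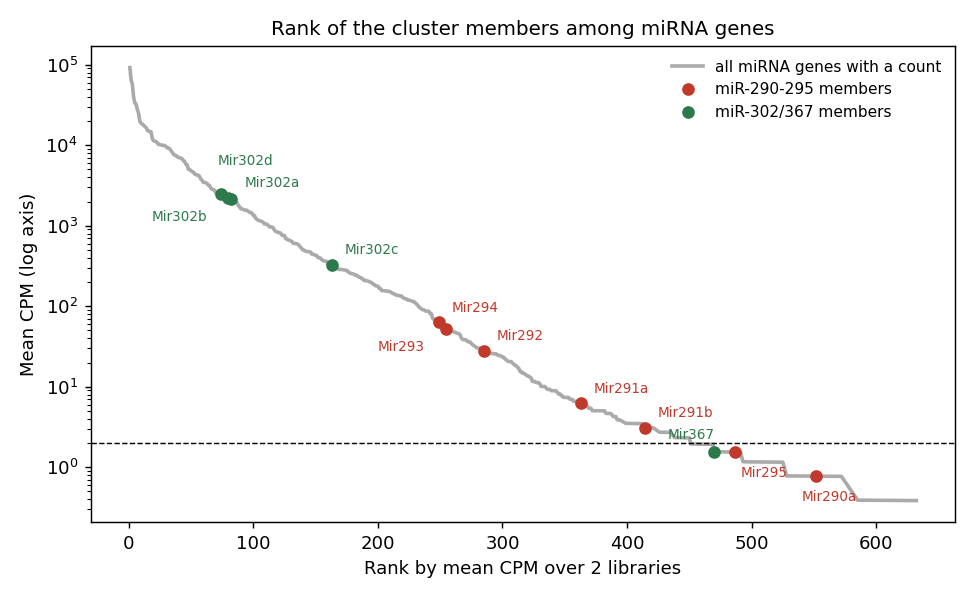
Mean CPM over both libraries, on a log axis, against rank for the miRNA genes with a count (grey line), with members of the miR-290 cluster in red and of the miR-302 cluster in green. The dashed line marks 2 CPM. Mir294, Mir293 and Mir292 rank 249, 255 and 285, and Mir295 and Mir290a fall below the line.

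The counts differed along the cluster. The first 4 hairpins, from Mir290a to Mir291b, held 30.0% of the cluster's counts in replicate 1 and 18.7% in replicate 2, and the last 3, from Mir293 to Mir295, held 70.0% and 81.3%. Neighbours in the order of mean level were compared within each library by a two-sided exact binomial test, with Benjamini-Hochberg adjustment over the 12 comparisons, of which 3 passed at 0.05. Mir292 exceeded Mir291a in both libraries, 5.63-fold in replicate 1 (interval 2.62 to 13.8, adjusted p = 2.84e-06, exact binomial) and 3.25-fold in replicate 2 (1.43 to 8.31, adjusted p = 0.0117, exact binomial). Mir293 exceeded Mir292 2.96-fold in replicate 2 (1.88 to 4.81, adjusted p = 2.97e-06, exact binomial). In replicate 1 that ratio was 1.29 (0.858 to 1.95) and did not pass. The ratios of Mir292 to Mir291a can read too high, since Mir291a can read too low from its stretch shared with Mir291b. The order that set the pairs was taken from these same counts.

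Mir294 and Mir293, at the top, did not differ beyond counting error in either library. Their ratio was 1.40 (0.985 to 1.99) in replicate 1 and 1.05 (0.760 to 1.46) in replicate 2. Nor did any neighbours among Mir291a, Mir291b, Mir295 and Mir290a, whose counts are too few to rank them. For Mir291a over Mir291b the ratio was 1.33 (0.406 to 4.66) in replicate 1 and 4 (0.798 to 38.7) in replicate 2. Mir295 and Mir290a had ratios of 1.00 (0.0127 to 78.5) and 3 (0.241 to 157), intervals that hold large differences in either direction.

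**Figure D3:**
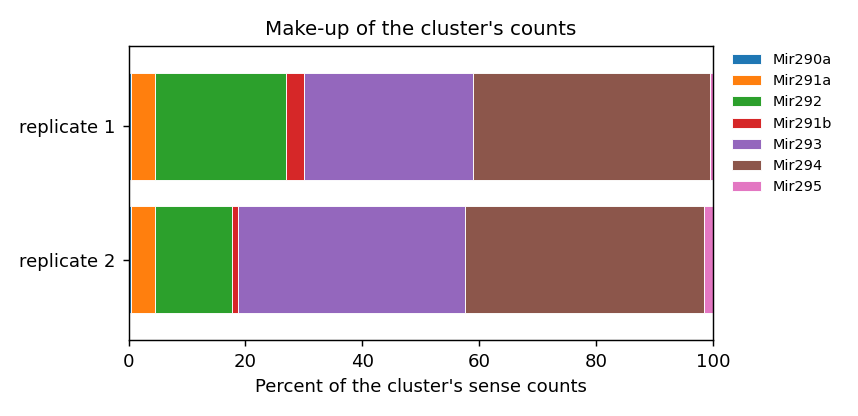
Percent of the cluster's sense counts taken by each member, in order along the chromosome, for replicate 1 (200 counts) and replicate 2 (198 counts). Mir294 takes 40.5% and 40.9%, Mir293 29.0% and 38.9%, and Mir292 22.5% and 13.1%.

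Within totals of 200 and 198 counts, the share of Mir292 was larger in replicate 1 than in replicate 2, and that of Mir293 was smaller. Mir293 had a larger share than Mir292 in both libraries. Mir292 took 22.5% of the cluster's counts in replicate 1 (Wilson interval 17.3 to 28.8%) but 13.1% (9.12 to 18.5%) in replicate 2, while Mir293 took 29.0% (23.2 to 35.6%) and 38.9% (32.4 to 45.8%). The intervals overlap for both genes, but only in a small part. Overlap is no test of a difference, and the shares were not tested. Mir294 held 40.5% and 40.9%.

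No member passed the comparison of the replicate libraries, a two-sided exact binomial test of counting error over all 398 genes with 10 counts or more, with Benjamini-Hochberg adjustment. Of these genes 113, or 28.4%, had an adjusted p under 0.05, and 11, or 2.76%, also differed by 2-fold. Of the 7 members, 4 had enough counts to be tested, and 0 of them passed, with 1 at an unadjusted p under 0.05, against 35.4% of all tested genes at that p. This was Mir292, with a log2 ratio of replicate 1 to replicate 2 of 0.80 (interval 0.08 to 1.57, adjusted p = 0.0733, exact binomial). Mir293 stood at -0.39 (-0.91 to 0.12), Mir294 at 0.02 (-0.44 to 0.48) and Mir291a at 0.02 (-1.59 to 1.63). The interval of Mir294 is narrower than that of Mir291a, which has few counts, but it still holds differences in either direction. The median log2 ratio of the tested members was 0.02, against 0.07 over all tested genes. The test compares these 2 libraries and not conditions. Genes with more counts pass it more easily. The 4 tested members had 8 to 81 counts in a library, so 0 passing does not show them to be steadier than other genes.

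Markers of other tissues were counted in the same libraries. The list of Hox cluster miRNAs, from loci used in hindbrain and trunk, had 269 counts in replicate 1 and 109 in replicate 2 over 6 genes, of which 5 reached 2 CPM in both. The erythroid list had 777 and 482 counts over 3 genes, all at 2 CPM or more, and the difference lay in Mir451a, with 632 and 317 counts. Mir144 had 113 and 119 counts and Mir486 32 and 46. Mir292 likewise had more counts in replicate 1, whereas Mir293 had fewer and Mir294 as many, and the part of these tissues in the levels was not tested. The epithelial list, with all 7 genes at 2 CPM or more, had 8297 and 7756 CPM in sum, led by Mir203 at 2629 and 2477 CPM. A list of X-linked miRNAs known from testis and germ cells had 2 counts in replicate 1 and 9 in replicate 2 over 13 genes. None of them reached 2 CPM in both libraries, and 7 had no count.

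**Figure D4:**
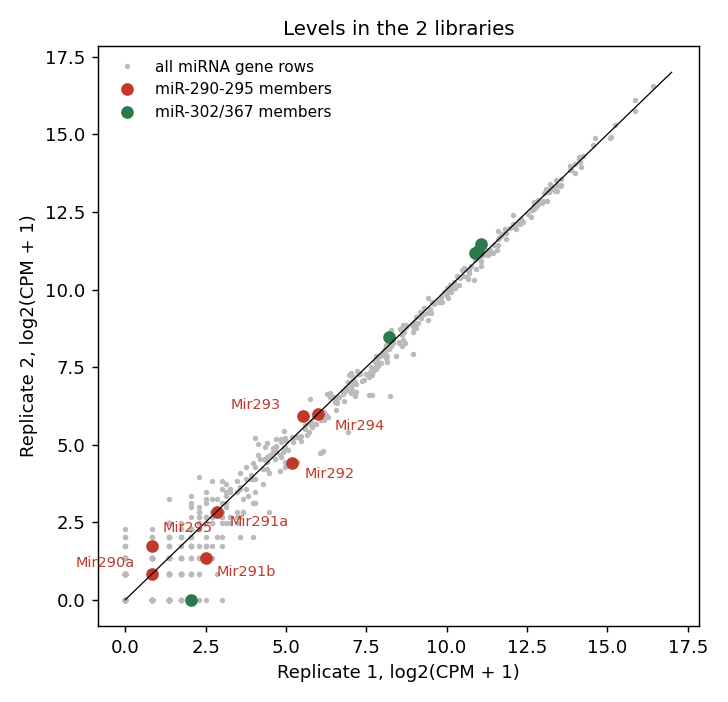
Level in replicate 2 against replicate 1, as log2(CPM + 1), for all 1973 miRNA gene rows (grey), with miR-290 members in red, miR-302 members in green and a line of equal levels. Mir294 and Mir291a lie on the line. Mir292 is higher in replicate 1 than in replicate 2 and Mir293 is lower, and neither of these passed the test.

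The miR-302 cluster, Mir302a to Mir302d and Mir367, the other cluster known from pluripotent cells, was far more abundant in the same libraries. Its 5 genes had 8166 counts in replicate 1 and 10269 in replicate 2, or 6374 and 7914 CPM in sum. This was 40.8-fold and 51.9-fold the sum of the miR-290 members. As a log2 ratio of the miR-290 to the miR-302 sum, it was -5.35 (exact Clopper-Pearson interval -5.56 to -5.15) in replicate 1 and -5.70 (-5.91 to -5.49) in replicate 2, or -5.52 ± 0.24. The difference between the clusters is many times the spread between the libraries. With 2 libraries in all, an exact permutation test cannot reach 0.05 and none was made.

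Every gene of the miR-302 cluster except Mir367 stood above Mir294 in both libraries. Mir302c, the lowest of the others, had 296 and 352 CPM against 63.2 and 62.4 CPM for Mir294. Mir367, the last hairpin of that cluster, had 4 counts in replicate 1 and 0 in replicate 2, with a mean of 1.56 ± 2.21 CPM beside 1.55 ± 1.08 CPM for Mir295. By counting error alone, Mir302a, Mir302b, Mir302c and Mir302d were all lower in replicate 1 (adjusted p from 1.24e-24 to 0.0452, exact binomial), with -0.38 for Mir302d as the log2 ratio furthest from 0. None of the 4 differed by 2-fold. In the edgeR exact test with a coefficient of variation of 0.1 between libraries, none of them had an adjusted p under 0.05. Of the tested miR-290 members, Mir293 had a log2 ratio of -0.39, Mir294 and Mir291a of 0.02 and Mir292 of 0.80. Whether the clusters differ in this respect was not tested.

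The shared 3' seed links the clusters, and its hairpins can be set side by side. Among the 5 hairpins whose listed arms have the seed AAGUGCU, Mir291a, Mir294 and Mir295 had 90 of 5314 counts in replicate 1, or 1.69% (Wilson interval 1.38 to 2.08%). In replicate 2 they had 92 of 6788 counts, or 1.36% (1.11 to 1.66%). Mir302d had 2779 and 3665 counts and Mir302b 2445 and 3031. The 3' arms of Mir302a and Mir292 have no entry in the table, so neither gene is counted in the family. The shares would change if either carried the seed. These sums hold the reads of both arms of each hairpin, so they do not measure the reads that carry the seed.

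Hairpins of the miR-17 seed family stood higher still. This family, known from dividing progenitors, had all 6 genes at 2 CPM or more in both libraries. Its sum was 128635 CPM in replicate 1 and 149884 CPM in replicate 2, led by Mir17 at 59115 and 71083 CPM. The let-7 family, known to accumulate as cells differentiate, had 10 of 10 genes with a row at 2 CPM or more and 29337 and 30437 CPM in sum, with Mirlet7g at 17970 and 19569 CPM. The 7 miR-290 members together were at 156 and 153 CPM beside these families.

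On the opposite strand, 0 reads were counted at each of the 7 members in both libraries, for which the limit of 3 counts is again 2.34 and 2.31 CPM. This includes the places of Mir290b and Mir292b, which are annotated on that strand. All reads counted at the members thus lay on the plus strand.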

How the data were processed

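Raw read counts per miRNA gene were used as deposited by the authors, in 3 columns per library (both strands, gene strand, opposite strand), with build mm10 and annotation GENCODE M4 per the file headers of the text deposited beside them. The aligner and the counting program were not given in the sources used here. A set of 4 rows for unmapped, multimapping, unassigned and ambiguous reads was kept out of totals. The gene strand column was used, which held 96.4% and 96.8% of the gene counts. Identifiers were matched to symbols in GENCODE M21 on the same assembly (1894 of 1973 rows), and M4 itself was not used. Mature sequences are RefSeq's.

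The members, the lists of other miRNAs and the tests were chosen with earlier results of these data known. The text names the members, other hairpins within the cluster, the genes of the miR-302 cluster, up to 3 genes of each other list by mean CPM, and the 3 genes closest to the highest member in log2(CPM + 1). D7Ertd143e, Nlrp12, Mir1958 and Mir124a-1 were named outside this rule, for their place, sequence or low count. Mir9-1, Mirlet7e and Mirlet7f-1 have no row. Of the lists' genes, several of the let-7 and neural lists have near copies, whose levels are uncertain. The binomial test, with 0.5 counts added for the log2 ratio, was tested on simulated counts. These had counting error alone, as the test assumes, so they do not show how it behaves with a spread between libraries. Alternatives covered scaling (TMM of edgeR 4.0.16, DESeq2 1.42.0 size factors), strand, filters, detection limit, the edgeR exact test and each library alone. The software was Python 3.11.15 (scipy 1.17.1, numpy 2.4.6, pandas 2.3.3) and R 4.3.3.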

Additional observations from a re-analysis of the deposited data

Results flagged for a closer look

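Among 36 of the genes named in the text, Mir203 alone had more than 3 reads on the opposite strand, with 32 in replicate 1 and 29 in replicate 2. The comparisons do not use these data. The members of the miR-290 cluster had 0 there.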

How the results depend on the processing

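Of 111 recomputed values, 93 were scored as unchanged. They stayed within the spread of the libraries, near the main count, or on their side of the threshold. Levels, shares and cluster ratios of a single library lie within that spread by construction. A change of sign was not scored, since no member was called. Without the 20 most abundant genes in the total, the median member rose to 14.2 CPM and the cluster's share to 0.0354%. With unstranded counts these were 5.99 CPM and 0.0149%, and over all mapped reads the share was 0.00745%, all by construction of the total. The mean level per member in place of the sum gave a log2 ratio to the miR-302 cluster of -6.01, since the clusters differ in size. The levels of single members moved in 10 further cases, from the same totals. In single libraries the median member was 6.17 to 6.24 CPM, the share 0.0153 to 0.0156%, the log2 ratio -5.70 to -5.35, and 5 members reached 2 CPM in each. Of all gene rows, 23.6% reached it in replicate 1 and 22.9% in replicate 2. At limits of 1, 5 and 10 CPM in both libraries, 5, 4 and 3 members passed, against 23.4%, 18.1% and 16.6% of all gene rows.

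The count of genes that differ by 2-fold between the libraries, 11, became 7 with edgeR's exact test where the assumed coefficient of variation was 0.1, and 0 at 0.2. The 113 genes at an adjusted p under 0.05 became 8 and 0, and the 141 at an unadjusted p under 0.05 became 21 and 13. This test assumes a spread between libraries that the binomial test does not have. Members called were 0 in every alternative run, and the adjusted p of Mir292 ran from 0.0620 to 1.00. The log2 ratios of Mir294 and Mir291a, 0.02, became -0.05 with TMM and -0.03 with DESeq2 size factors. Division by hairpin length, which like the edgeR test of the Mir302 genes was added after seeing the data, left the order of members by mean level the same. No paired analysis was possible because the series has 1 group. Depth limits Mir290a, Mir291b and Mir295 most, at 1 to 6 counts.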

Other observations

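The genes closest to Mir294 in level over the 2 libraries, by Euclidean distance in log2(CPM + 1), were Mir669e, Mir128-2 and Mir574. Mir669e, of the rodent Sfmbt2 cluster, had 57.8 CPM in each library at a distance of 0.168. Mir128-2, known from neurons, had 71.0 and 65.5 CPM at 0.179, and Mir574 had 67.1 and 53.9 CPM at 0.224. Likeness over 2 libraries of 1 group is a likeness of level only, in counts that leave out multimapping reads.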
